A study of Mus musculus with 9 samples.

Results

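Havcr1, Vcam1, Slpi and Krt18 are genes that tubular cells of the kidney are known to switch on or raise after injury. Each was looked up by its symbol, and all 4 were found among the 489 distinct genes of the deposited kidney tables. All 4 stand in the table of genes that the authors called for young against old (389 genes), and 0 of them in the table called for 3HB against old (113 genes). The series holds 3 groups of ICR mice, an outbred stock, with 3 kidneys each. The young mice were 2 months old and the old mice 20 months, both untreated, and the mice of the 3HB group were 20 months old and had drunk water with 3-hydroxybutyrate (3HB, a ketone body, given as its sodium salt) at 1 g/L from 11 months of age. All were males, and no transgene or deletion is named for any group. The tissue is kidney in the sample labels, although the methods paragraph on RNA-seq names muscle. Of 20 proximal tubule markers 1 was listed, Lrp2, which the authors called for 3HB. It was at 68.6 to 116.6 in young, 87.9 to 105.3 in old and 143.0 to 154.5 in 3HB mice, and its part in the levels of the 4 genes was not tested. Of 11 muscle markers 0 were listed, but the tables hold only called genes, so markers that were not called are not analysed here.

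A higher level, the direction that the name of injury genes implies, was seen in old kidneys for 3 of the 4 genes. Havcr1, Vcam1 and Slpi were higher in old than in young kidneys, and Krt18 was lower, so the genes are described here one by one and not as a score. In the 3HB mice all 4 genes lay on the same side of the young mice as in the old mice, without overlap. In this comparison 73% of all listed genes and 83.5% of those called only for age showed no overlap in either direction. Between 3HB and old mice 1 of the 4 genes, Vcam1, showed no overlap, with a lower level and a narrow gap, beside 29.7% of all listed genes and 11.7% of those called only for age in either direction.

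As background, the proximal tubule reabsorbs most of the filtrate, and its cells are the ones most often hurt by ischemia or toxins. Havcr1 encodes KIM-1, a membrane protein that a healthy tubule hardly makes and that lets injured tubular cells take up dying neighbours. Vcam1 encodes an adhesion molecule that binds the integrin α4β1 on leukocytes; cytokines induce it in endothelium, and tubular cells that fail to recover after injury also express it. Slpi encodes a secreted inhibitor of neutrophil serine proteases, and Krt18 a type I keratin that pairs with keratin 8 in the filaments of simple epithelia such as the collecting duct.

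The genes lie apart from each other. On GRCm38, the build that the submitters' processing notes name, GENCODE release M21 places Havcr1 (ENSMUSG00000040405) on the plus strand of chromosome 11 at 46735080 to 46779578, with 4 annotated transcripts. Vcam1 (ENSMUSG00000027962) lies on the minus strand of chromosome 3 at 116109949 to 116129688, and its exons share bases with an antisense gene, Gm43109. It is not stated whether reads were counted by strand, so the reads of these 2 genes cannot be told apart. Slpi (ENSMUSG00000017002) lies on the minus strand of chromosome 2 at 164354070 to 164389095, and its exons share bases with the microRNA gene Mir7678 on the same strand. Krt18 (ENSMUSG00000023043) lies on the plus strand of chromosome 15 at 102028180 to 102032027 and has a single annotated transcript of 1437 nt in 7 exons. Over up to 1269 nt this transcript matches that of Gm5200 (90.2% identity at most), so the value of Krt18 is uncertain to the extent that reads were split between them. No other gene's transcript matched Havcr1, Vcam1 or Slpi over at least 200 nt at 90% identity.

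RefSeq promoter windows were matched for 3 of the 4 genes (Havcr1, Slpi and Krt18; GRCm38.p6). They are shown because Havcr1 and Slpi were higher and Krt18 lower in old kidneys, and they let these starts be compared. Capitals mark matches to a kappaB-like motif, the one of 7 searched motifs that was found. Havcr1 has 3 RefSeq starts, and the one shown coincides with the start of the GENCODE transcript Havcr1-203. Bases that GENCODE counts as exon are left out.
Slpi, chr2:164356508-164356757, minus strand: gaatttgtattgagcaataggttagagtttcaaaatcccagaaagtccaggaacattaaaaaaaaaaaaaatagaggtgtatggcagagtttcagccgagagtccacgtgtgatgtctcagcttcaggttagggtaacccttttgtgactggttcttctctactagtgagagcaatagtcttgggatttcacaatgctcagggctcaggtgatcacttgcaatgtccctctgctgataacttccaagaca
Havcr1, chr11:46750261-46750510, plus strand: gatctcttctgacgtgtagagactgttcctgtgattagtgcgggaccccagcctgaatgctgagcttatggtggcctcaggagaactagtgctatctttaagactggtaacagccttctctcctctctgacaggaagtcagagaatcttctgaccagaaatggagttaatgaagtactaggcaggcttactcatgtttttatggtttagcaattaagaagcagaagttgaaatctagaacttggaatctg
Krt18, chr15:102027966-102028179, plus strand: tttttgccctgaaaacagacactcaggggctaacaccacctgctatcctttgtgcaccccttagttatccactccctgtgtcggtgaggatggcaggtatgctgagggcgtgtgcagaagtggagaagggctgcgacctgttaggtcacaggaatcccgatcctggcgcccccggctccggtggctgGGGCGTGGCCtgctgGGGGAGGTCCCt
Both strands of the 250 bases before each start were searched, and overlapping matches were counted. The kappaB-like motif was 3 G and 2 C with 5 bases of any kind between them, and the interferon-response-like motif was GAAA repeated after 2 bases of any kind. The AP-1-like motif was TGANTCA, the STAT-like motif TTCNNNGAA and the TATA-like motif TATAAA. The CCAAT box and the Sp1-like motif GGGCGG completed the search. Krt18 held 3 kappaB-like matches, which begin 63, 48 and 47 bases before its RefSeq start, and the last of these overlap. This motif occurs in 45.8% of all 32851 windows. The windows of Slpi and of the 3 Havcr1 starts held no match to any of the 7 motifs. In all windows the CCAAT box is found in 33.9%, the Sp1-like motif in 32.7%, the TATA-like in 12.4%, the STAT-like in 7.02%, the AP-1-like in 6.75% and the interferon-response-like in 2.98%. The lack of a match says only that these letters are not in the window.

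Havcr1 was at 0.93, 1.96 and 5.30 in the young mice, at 10.3, 8.26 and 11.8 in the old mice, and at 7.38, 10.5 and 9.27 in the 3HB mice (normalized expression values, mice 1 to 3 of each group). The unit is not stated, but the submitters name StringTie, which gives TPM and FPKM. Young mouse 3 was highest of the young, yet it lay below all 6 mice of 20 months. The mean was 2.73 ± 2.28 in young and 10.1 ± 1.76 in old kidneys (SD, n = 3 each), a difference of 1.74 in log2(value + 1) with a standard error of 0.52. Since the authors called the gene on these same mice, the difference with age is a description without a test. This holds for the other 3 genes as well. The old mice also took part in that call, which limits the tests of 3HB against old, although none of the 4 genes was called for 3HB. With 3HB the mean was 9.06 ± 1.59, and the old and 3HB mice overlapped. The difference of -0.14 (standard error 0.19) gave p = 0.6 (exact permutation test, two-sided).

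Vcam1 measured 1.45, 0.90 and 1.23 in the young mice, 14.4, 7.58 and 12.8 in the old mice and 6.97, 7.49 and 7.44 with 3HB. The young mice lay close together, and old mouse 2 stood below the other old mice. The difference between old and young was 2.48 in log2(value + 1) (standard error 0.28), and the ratio of the group means was 9.7. The 3HB mice were nearly equal to one another, with a coefficient of variation of 3.93% against 30.7% in the old mice. All 3 lay under all 3 old mice, but the highest 3HB mouse (7.49) was next to old mouse 2 (7.58). The difference between 3HB and old was -0.56 (standard error 0.26; p = 0.1 in a two-sided exact permutation test, which cannot go lower with 3 mice a group). Among all 489 genes 15.1% lay lower in 3HB than in old mice without overlap. Among the 376 genes called only for age, Vcam1 included, this share was 4.26%. It is lower partly because the genes called for 3HB are left out of this set.

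The 3HB level of Vcam1 remained well above the young one. It exceeded the young mice by 1.93 in log2(value + 1) (standard error 0.11), with a ratio of the means of 6.12. The young mice took part in the authors' call of the 4 genes, so the differences between 3HB and young are likewise given without a test. Of 22 myeloid markers looked up, 2 were in the tables, Lyz2 (lysozyme) and Mmp12 (macrophage elastase), while 0 of 14 endothelial markers were. The summed level of both myeloid genes was 75.6, 24.9 and 32.8 in old mice 1, 2 and 3, in the same order of mice as Vcam1, and 36.6, 44.1 and 38.2 in the 3HB mice, where the order was again that of Vcam1. In young mice 1, 2 and 3 it was 8.28, 8.38 and 9.43, which is not the order of Vcam1. The sum was mostly Lyz2. Mmp12 alone was at 3.63, 1.99 and 2.89 in the old mice and at 2.31, 1.19 and 0.89 in the 3HB mice, where its order was not that of Vcam1. Between 3HB and old the difference was 0.044 for Lyz2 and -0.66 for Mmp12, with overlap for both. The part of such cells in the level of Vcam1 was not tested, and in whole tissue more cells of a type and more RNA per cell cannot be told apart.

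Slpi measured 0.48, 0.21 and 0 in the young mice, 5.24, 11.5 and 4.81 in the old mice and 11.9, 7.61 and 20.1 with 3HB. All mice of 20 months were far above the young, and within the old and within the 3HB group the gene was the most variable of the 4, with coefficients of variation of 52.0% in old and 48.2% in 3HB mice. The difference between old and young was 2.66 in log2(value + 1) (standard error 0.39), a size that depends on the pseudocount because the young values are near 0 (4.68 with a pseudocount of 0.1). Old mouse 2, the lowest old mouse for Vcam1 and Havcr1, was the highest for Slpi. In the 3HB mice the mean was 13.2 ± 6.37 against 7.17 ± 3.73 in old mice (SD, n = 3 each). These groups overlapped, and the difference was 0.79 (standard error 0.51). It gave p = 0.2 (exact permutation test, two-sided), where 3 mice a group allow no p below 0.1. The difference was larger than the SD of either group on the log2 scale (0.61 in old and 0.65 in 3HB mice). Of the 4 genes Slpi had the highest 3HB mean relative to old, and 94.7% of the other genes called only for age had a lower difference.

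Lymphocyte and plasma cell genes are given beside Slpi. Of 19 markers looked up 7 were in the tables (Cd8a, Cd79a, Mzb1, Jchain, Ighm, Igha and Igkc), with 6 higher and Cd8a lower in old mice, beside 70.8% of all listed genes higher in old mice. The young and old values of Cd8a overlapped. The sum of the 7 genes was 289.0, 49.9 and 92.7 in young mice 1, 2 and 3, which is not the order of Slpi. It was 4260.5, 4324.8 and 1142.0 in the old mice and 3293.2, 3267.6 and 4616.6 in the 3HB mice. Within both of these groups the order of mice was that of Slpi. Old mice 1 and 3 had similar Slpi values (5.24 and 4.81) beside sums of 4260.5 and 1142.0. The sum was mostly Igkc and Igha, at 2648.0 and 1276.8 in old mouse 1. The part of these cells in the level of Slpi was not tested.

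Krt18 measured 23.3, 15.5 and 21.2 in the young mice, 6.83, 7.50 and 9.36 in the old mice and 8.73, 9.31 and 9.69 with 3HB. Every mouse of 20 months was below every young mouse. The mean was 20.0 ± 4.08 in young and 7.90 ± 1.31 in old kidneys (SD, n = 3 each), a difference of -1.23 in log2(value + 1) with a standard error of 0.21. The young mean was 2.53 times the old one. The 3HB mean of 9.24 ± 0.483 was within the range of the old mice. The difference of 0.21 (standard error 0.13) gave p = 0.3 (exact permutation test, two-sided), where 0.1 is the smallest possible p. On the log2 scale the SDs were 0.21 in old and 0.068 in 3HB mice. Against the young mice the 3HB difference was -1.02 (standard error 0.18).

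**Figure D1:**
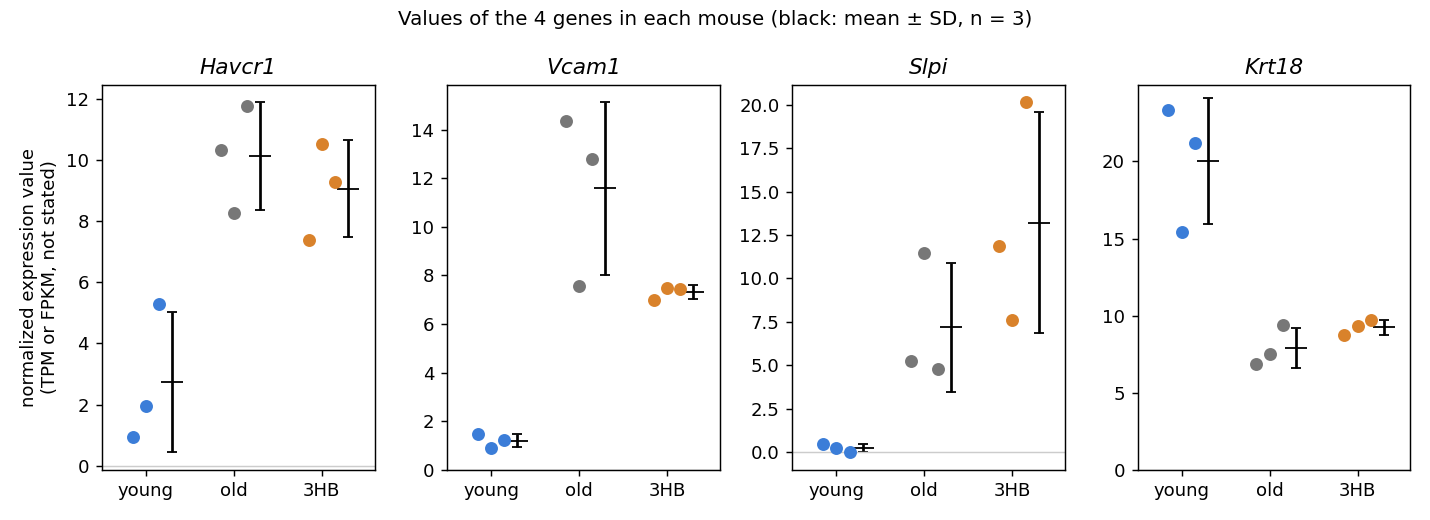
Normalized expression value (y axis, linear) of Havcr1, Vcam1, Slpi and Krt18 in each of the 9 mice, by group; points are mice and the black marks give the mean ± SD (n = 3). Havcr1, Vcam1 and Slpi lie higher and Krt18 lower in every mouse of 20 months than in the young, and the 3 Vcam1 values with 3HB (6.97 to 7.49) lie just under the lowest old mouse (7.58).

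Counted together, 3 genes were higher and 1 was lower in old than in young mice, each without overlap. Of all listed genes 54% were higher and 21.9% lower in this way, and as the tables hold genes called on these mice, nothing is read from these counts. Among the 271 genes called for age that were higher in old mice, Slpi ranked 84th, Vcam1 89th and Havcr1 117th by the size of the difference, and the median of these genes was 1.58. Krt18 ranked 45th of the 118 genes that were lower, whose median was -1.06.

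Between 3HB and young mice 3 genes were higher and 1 was lower without overlap. Among all listed genes 54.2% were higher and 18.8% lower without overlap in this comparison. Havcr1 was above young by 1.60 (standard error 0.52) and Slpi by 3.45 (standard error 0.41) in log2(value + 1). With a pseudocount of 0.1 the difference of Slpi was 5.56. The gap of Havcr1 was the smallest in units, between young mouse 3 at 5.30 and 3HB mouse 1 at 7.38. The comparisons of 3HB and of age share the old or the young mice, so they are given side by side and not related to each other.

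**Figure D2:**
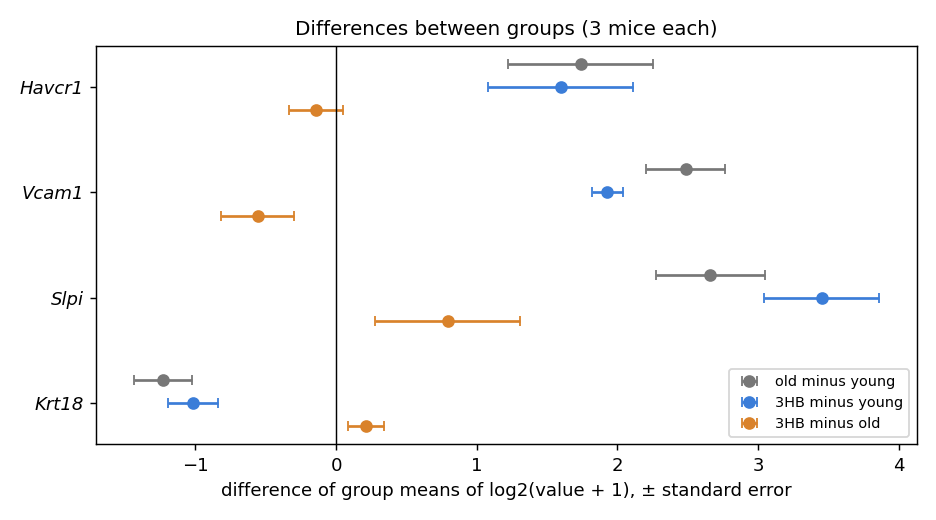
Difference between group means of log2(value + 1) with its standard error (x axis) for the 4 genes, in the 3 comparisons of groups of 3 mice. Old minus young and 3HB minus young lie on the same side for each gene, while 3HB minus old ranges from -0.56 for Vcam1 to 0.79 for Slpi.

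Against old mice, 1 of the 4 genes was lower with 3HB without overlap (Vcam1), 0 were higher without overlap and 3 overlapped. Without overlap 14.5% of all listed genes were higher and 15.1% lower with 3HB, and among genes called only for age these shares were 7.45% and 4.26%. Within those 376 genes, the median difference between 3HB and old was 0.066, and the middle of the distribution ran from -0.19 to 0.34 (quartiles). Havcr1 and Krt18 lay inside this range, Vcam1 below it with 8.53% of the other genes lower, and Slpi above it.

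**Figure D3:**
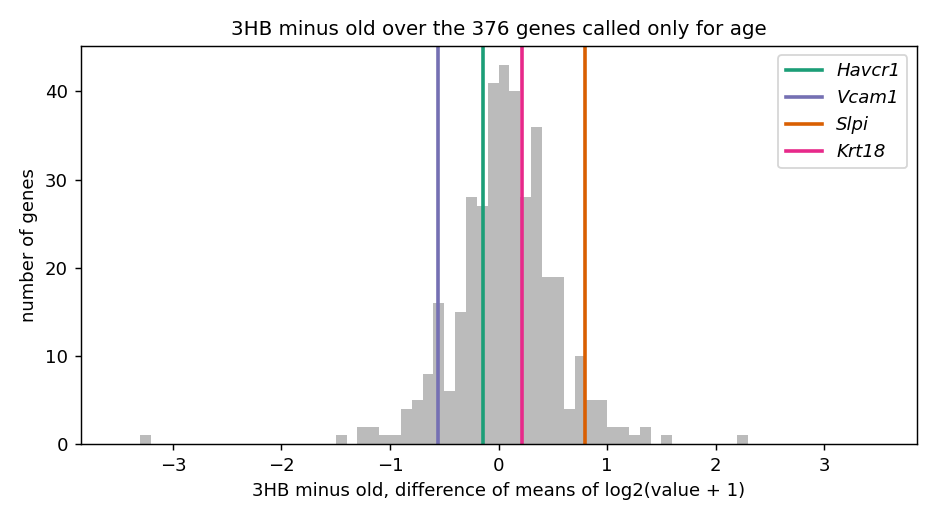
Number of genes (y axis) by the difference between 3HB and old mice in log2(value + 1) (x axis), over the 376 genes that the authors called only for age; vertical lines mark the 4 genes. Havcr1 (-0.14) and Krt18 (0.21) stand near the centre, Vcam1 (-0.56) in the lower flank and Slpi (0.79) in the upper flank.

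The order of the 4 levels was not the same in the 3 groups. The levels are set side by side on the understanding that the values are TPM or FPKM, which are both per transcript length. In young kidneys Krt18 was highest (mean 20.0), followed by Havcr1 (2.73), Vcam1 (1.19) and Slpi (0 to 0.48). Krt18 was clear of the others, while Havcr1 and Vcam1 overlapped. In old kidneys the order by mean was Vcam1 (11.6), Havcr1 (10.1), Krt18 (7.90) and Slpi (7.17), and the values of every pair of neighbours overlapped between mice. Compared within a mouse, Havcr1 was above Krt18 in 3 of 3 old mice, and the other neighbours kept their order in 2 of 3. In the 3HB mice it was Slpi (13.2), Krt18 (9.24), Havcr1 (9.06) and Vcam1 (7.30), again with overlap between all neighbours. Within a mouse Havcr1 was above Vcam1 in 3 of 3 3HB mice, and the other neighbours kept their order in 2 of 3. The level of Krt18 exceeded that of 75.5% of listed genes in young mice and 45.0% in old mice.

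Of 46 other symbols of tubular injury and repair 8 were in the tables, all called for age, of which 6 had a higher and 2 a lower level in old kidneys. This is near the background, since 69.7% of the 389 genes called for age were higher in old mice. Their median difference was 1.15, beside 1.12 over the 376 genes called only for age. The higher ones were Cdkn1a and Gadd45a, which act in cell cycle arrest after damage, Cd44 (a hyaluronan receptor of injured tubules) and the fibrinogen chains Fga, Fgb and Fgg. Of the list, 38 symbols were not analysed here, Lcn2, Spp1 and Sox9 among them. Fgg averaged 1.35 ± 0.665 in the young mice, 18.7 ± 14.0 in the old and 6.67 ± 5.55 with 3HB (SD, n = 3 each), and the old mice were at 20.2, 3.99 and 31.8. As with Vcam1 and Havcr1, old mouse 2 was the lowest of its group, and its values overlapped between 3HB and old (p = 0.3, exact permutation test, two-sided). Cdkn1a measured 9.43, 10.2 and 11.97 in old and 12.1, 12.7 and 16.4 in 3HB mice, higher with 3HB without overlap (difference 0.35, standard error 0.16; p = 0.1, exact permutation test, two-sided). Cd44 was low throughout, at 0.17 to 0.34 in young and 0.94 to 2.49 in old mice, with a mean of 1.53 ± 0.331 with 3HB. Gadd45a averaged 31.2 ± 6.16 in the young mice, 72.1 ± 13.3 in the old and 49.1 ± 17.4 with 3HB. The means of Fga were 5.44 ± 1.5, 20.3 ± 12.3 and 14.9 ± 11.8 in the same order of groups, and Fgb stayed between 0 and 1.12 in all 9 mice. With 3HB, 3 of the 8 genes were higher and 5 lower than in old mice, beside 46% of all listed genes lower. The 2 groups did not overlap for 3 of the 8, Cdkn1a, Krt7 and Klk1. Of all listed genes 29.7% did not overlap there, and of those called only for age 11.7%.

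The genes of this list that were lower in old mice were Krt7 and Klk1. Krt7, a type II keratin of the collecting duct, measured 66.4, 49.4 and 49.2 in the young mice, 25.6, 25.4 and 23.4 in the old mice and 26.6, 32.6 and 32.8 with 3HB. Its difference was -1.11 with age (standard error 0.15), close to that of Krt18, and 0.29 between 3HB and old (standard error 0.10; p = 0.1, exact permutation test, two-sided), without overlap in either case. Klk1 (tissue kallikrein, made in the distal nephron) averaged 2457.1 ± 273 in the young mice, 1346.9 ± 220 in the old and 1772.1 ± 87.4 with 3HB (SD, n = 3 each). Its difference was -0.87 with age (standard error 0.16) and 0.41 between 3HB and old (standard error 0.14; p = 0.1, exact permutation test, two-sided). Neither comparison of Klk1 showed overlap. Krt7 and Krt18 were the 2 genes with an intermediate filament domain in the deposited annotation, and both were lower in old mice without overlap. Among all listed genes 21.9% were lower in this way.

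Leukocyte recruitment genes stood beside Vcam1. Of 26 symbols looked up 5 were in the tables, the chemokines Ccl2, Ccl7, Cxcl10 and Cxcl16 and the integrin chain Itgal, and 5 of 5 had a higher mean in old than in young mice, with no overlap in 4. Among all listed genes 70.8% had a higher mean in old mice, and 54% were higher without overlap. All 5 means were lower in 3HB than in old mice, beside 46% of all listed genes. None of the 5 was without overlap there (0 of 5), beside 15.1% of all listed genes that were lower without overlap, and the median difference was -0.41 beside 0.031 over all 489 genes. Cxcl10 is one of the 13 genes called in both comparisons, so its lower mean with 3HB is not independent of that call. Ccl2 (a monocyte attractant) measured 0.27, 0 and 0.29 in the young mice, 13.8, 3.35 and 13.8 in the old mice and 5.62, 8.67 and 7.96 with 3HB. Old mouse 2 was again the lowest old mouse, and the 3HB mice lay between it and the other old mice (p = 0.6, exact permutation test, two-sided). Cxcl16 averaged 12.3 ± 5.40 in the young mice, 32.3 ± 10.3 in the old and 21.4 ± 3.64 with 3HB, and Cxcl10 averaged 1.86 ± 1.57, 4.74 ± 1.70 and 2.39 ± 1.23. Ccl7 was listed at 0 in the 3 young mice and averaged 1.58 ± 1.08 in the old and 1.03 ± 1.17 with 3HB. Itgal, which pairs to form LFA-1 on leukocytes, stayed between 0.09 and 1.09 in all mice. The α4 and β1 integrin chains that bind VCAM-1 were not analysed here.

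Beside Slpi, 1 of 17 protease inhibitor and WAP symbols looked up was in the tables. This was Serpine2 (protease nexin 1), with 11.9, 4.87 and 7.19 for the young mice, 20.7, 30.4 and 14.9 for the old, and 28.1, 25.85 and 34.0 with 3HB. Like Slpi it was highest in mouse 2 of the old group, and 3HB and old values overlapped (p = 0.3, exact permutation test, two-sided). Wfdc16, found through its WAP domain after values were seen, is the 1 other gene in the tables with the domain that Slpi carries. Its values were 0.46, 0.27 and 1.19 in the young, 3.03, 5.5 and 5.64 in the old and 4.14, 5.31 and 3.8 in the 3HB mice. Members of the TIM family other than Havcr1 were not analysed here.

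**Figure D4:**
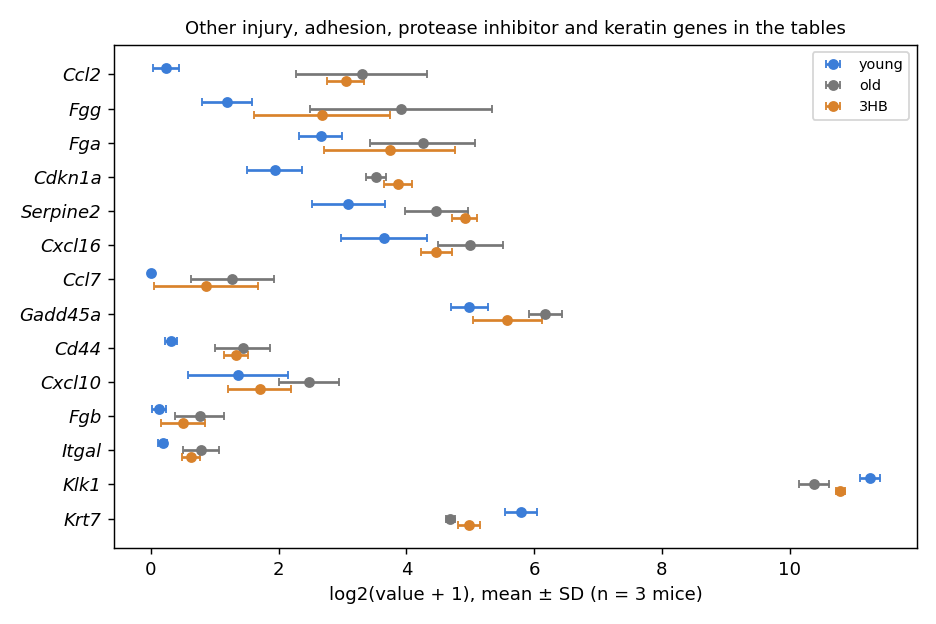
Mean ± SD (n = 3 mice) of log2(value + 1) on the x axis for the 14 other injury, adhesion, protease inhibitor and keratin genes in the tables, ordered from top to bottom by the difference between old and young. Krt7 and Klk1 are lower in old than in young mice and the other 12 are higher.

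The deposited annotation linked Vcam1 and Slpi through the term response to lipopolysaccharide, which was attached to 7 listed genes, all 7 higher in old mice beside 70.8% of all listed genes. Vcam1 also carried the KEGG pathways for TNF and NF-kappa B signaling. The TNF pathway held 5 listed genes and the NF-kappa B pathway 6. Krt18 was the only listed gene with the GO term for signaling mediated by tumor necrosis factor. Havcr1 carried 1 GO term (integral component of membrane) and 0 KEGG pathways, although the deposited domains of Havcr1 and Vcam1 have the immunoglobulin V-set in common. This domain was found in 72 listed genes, of which 61 have immunoglobulin symbols, and 70 of the 72 were higher in old mice beside 69.7% of all genes called for age.

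The listed genes most like each of the 4 were found by the root mean square difference between profiles of log2(value + 1) over the 9 mice, after each gene's own mean was subtracted. For Havcr1 these were Gstt1 (0.23), a glutathione transferase, Cstb (0.34), a cysteine protease inhibitor, and Prxl2c (0.37), against a median of 0.91 over all genes. Gstt1 was at 46.4, 45.2 and 105.1 in the young mice, so that mouse 3 stood out as it did for Havcr1. For Vcam1 they included Smoc1 (0.30), a matrix protein, and H4c3 (0.36), a histone H4 gene with near-identical copies, against a median of 1.003. For Krt18 they were Zpld1 (0.18), Krt7 (0.19) and Kcnj2 (0.19), a potassium channel, against a median of 1.02. Zpld1 ranged from 0.40 to 1.59 in the young mice and was 0 in the 3 old ones.

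For Slpi the most similar genes were Ighv5-4 (0.39), Mir124-2hg (0.41) and Gm47939 (0.48), against a median of 1.37. Ighv5-4 is an immunoglobulin heavy chain variable gene with near-identical copies, and it was listed at 0 in the young mice. With a pseudocount of 0.1, 1 of the 3 genes was kept for Havcr1 (Gstt1) and Krt18 (Krt7) each, and 0 of 3 for Slpi. Smoc1 and H4c3 were not among the 3 genes most like Vcam1 under that pseudocount.

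**Figure D5:**
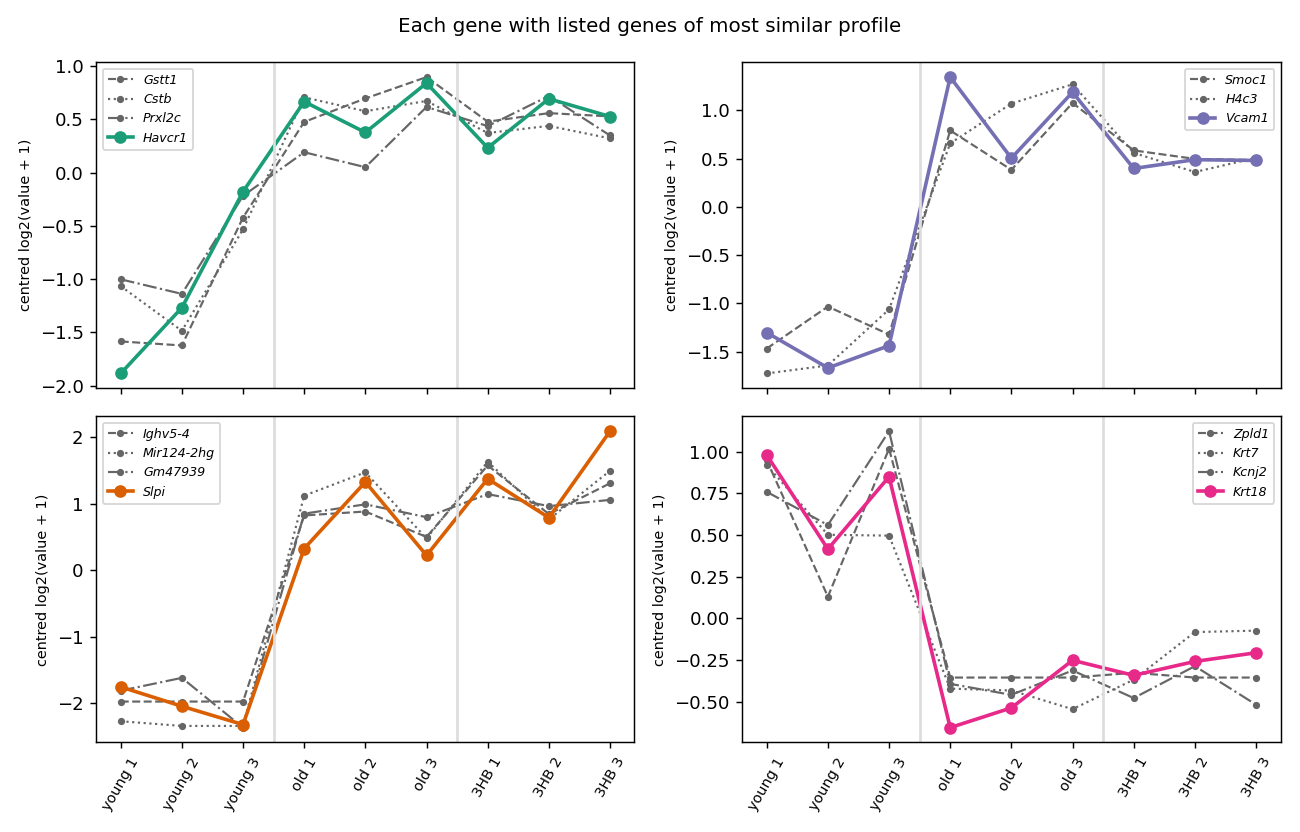
Profiles of Havcr1, Vcam1, Slpi and Krt18 (coloured) and of the genes most like each (grey, 3 per gene and 2 for Vcam1), as log2(value + 1) minus the mean of the gene over the 9 mice (y axis), for each mouse (x axis); the lines only help to follow a gene, since mice have no order. All mice of 20 months lie on one side of the young mice in each panel, and the root mean square difference is 0.39 to 0.48 for the genes beside Slpi and 0.18 to 0.37 for those beside the other 3.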

How the data were processed

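RNA of 9 kidneys was sequenced, and GEO labels gave the groups (3 young, 3 old and 3 3HB mice). The submitters' processing notes name CASAVA, HISAT2, StringTie and the build GRCm38, without versions. The authors deposited 2 tables that list only the genes they called, with normalized values to 2 decimals. Their unit, annotation release, test and threshold are not given in the sources used here, and since StringTie gives TPM and FPKM the values were read as one of these. Of the 489 identifiers, 10 are not in GENCODE M21. Depth is unknown, so no counting error can be given, and precision rests on 3 mice per group.

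Differences were computed as group means of log2(value + 1) with standard errors from both SDs, which understates changes of low values. Those of 3HB against old were tested by exact permutation over the 20 splits of 6 mice, where the smallest p is 0.1. The test planned for 3HB against young is not given, because the young mice took part in the authors' call. No p was adjusted and no model was fitted across genes, because the tables leave out the genes that were not called. Nothing says that mice of a group came from separate litters or cages. The 4 genes and the 13 other lists were chosen with earlier results of these data known. Named genes were all 4, the members of the injury, adhesion, TIM, protease inhibitor and keratin lists found in a table, cell type markers that could bear on a gene, and the 3 most similar profiles of each, of which 1 is not reported here. Of the remaining lists, 0 of 17 loop, distal tubule and collecting duct genes were listed, 1 of 12 fibroblast and matrix genes (Plau) and 1 of 7 podocyte and parietal cell genes (Cldn1). Sequences are from RefSeq (GRCm38.p6), and transcripts were compared by BLAST. Alternatives were the pseudocount (0.1), group medians, a replicate block, leaving out each mouse, a highest group mean of at least 1, genes called only for age, and matching by identifier. The calculations were tested on simulated data. Python 3.11.15, numpy 2.4.6, pandas 2.3.3 and matplotlib 3.10.9 were used.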

Additional observations from a re-analysis of the deposited data

How the results depend on the processing

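All differences of the 4 genes kept their direction under every alternative tried. With a pseudocount of 0.1 the difference between old and young was 3.15 for Vcam1 and 4.68 for Slpi, in place of 2.48 and 2.66, and that between 3HB and young was 5.56 for Slpi in place of 3.45, because the young values are near 0. Leaving out one mouse at a time, old minus young ranged from 1.35 to 2.20 for Havcr1, 2.32 to 2.74 for Vcam1, 2.31 to 2.86 for Slpi and -1.40 to -1.11 for Krt18. For 3HB minus old the ranges were -0.27 to -0.018 for Havcr1, -0.81 to -0.39 for Vcam1, 0.46 to 1.14 for Slpi and 0.12 to 0.33 for Krt18, and for 3HB minus young they were 1.21 to 2.06, 1.83 to 2.01, 3.12 to 3.76 and -1.18 to -0.90 in the same order. Among genes called only for age, the share without overlap between 3HB and old was 7.45% (higher) and 4.26% (lower) in place of 14.5% and 15.1%, since genes called for 3HB are left out. Matching lists by identifier gave the same counts. Mice with the same replicate number did not deviate together in every pair (correlations across genes from -0.24 to 0.16). The main tests did not pair mice by number. With 3 mice a group and only called genes, these correlations cannot tell whether mice with the same number were handled together. With the replicate block the difference of Vcam1 between 3HB and old stayed at -0.56 with a standard error of 0.28, and its exact sign-flip test gave p = 0.25, the smallest possible with 3 pairs.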
